A study of Homo sapiens with 6 samples.

Results

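The genes described here are the 5 subunits of the transcription factor NF-kappaB (NFKB1, NFKB2, REL, RELA and RELB) and 5 of its inhibitors (NFKBIA, NFKBIB, NFKBIE, NFKBIZ and TNFAIP3). They were taken by symbol, as a set chosen with earlier results of these data known, from a table of 57688 gene rows, and all 10 were found. The table came from RNA sequencing of WM3248, a human line labelled as VGP primary melanoma, in 2 groups of 3 libraries. The siNC group had received a commercial negative control siRNA and the siPGC1a group 1 siRNA product directed at PPARGC1A, the gene of the coactivator PGC1-alpha. Both siRNAs were given at 30 nM with a Lipofectamine reagent, and RNA was extracted 48 h after transfection. A single cell line, a single time and a single targeting product limit what the groups model, and the siRNA sequences were not given. Nothing in the labels ties the 3 libraries of each group to separate cultures. P-values therefore set the group difference only against the scatter of these libraries, and that scatter may be technical. The comparison asks whether transcripts of this pathway differ in level once PPARGC1A is targeted.

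NF-kappaB proteins share a Rel homology domain, bind DNA as dimers at kappa B sites, and are held in the cytoplasm of resting cells by I-kappa-B proteins. In the canonical pathway, receptors for TNF and IL-1 activate the IKK complex, which marks I-kappa-B for ubiquitination and breakdown so that dimers of RELA and NFKB1 (p50) enter the nucleus. In the non-canonical pathway the kinase NIK leads to processing of NFKB2 into p52, which pairs with RELB. Several genes of the system are themselves known NF-kappaB targets, which gives the pathway its feedback, and melanoma cells are known for frequent NF-kappaB activity and chemokine secretion.

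Because feedback runs through promoters, the promoters of the members were searched for the 10-base kappa B consensus on both strands. RefSeq windows (GRCh38.p14, 250 bases before to 50 after each annotated start) existed in the table used for 8 of the 10 members, with RELB and NFKBIE not in it. At least 1 match lay in a window of 7 of these 8 genes, and in 9 of their 14 windows (64.3%). Across all 35116 RefSeq windows of this length, 5.91% held a match, and across 27305 genes with a window 7.09% did. The stretches below, written 5' to 3' in the direction of the gene, show the match in capitals with the bases around it, and touching or overlapping matches share 1 run of capitals.
NFKB1 (chr4:102501295-102501334, plus strand): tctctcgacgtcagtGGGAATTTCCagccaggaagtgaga
NFKB2 (chr10:102394456-102394524, plus strand): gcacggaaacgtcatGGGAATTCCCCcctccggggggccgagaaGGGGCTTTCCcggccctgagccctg
NFKB2 (chr10:102395669-102395704, plus strand): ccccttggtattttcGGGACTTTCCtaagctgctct
REL (chr2:60881512-60881552, plus strand): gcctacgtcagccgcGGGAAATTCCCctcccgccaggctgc
NFKBIA (chr14:35404806-35404845, minus strand): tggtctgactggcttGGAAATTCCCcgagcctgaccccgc
NFKBIB (chr19:38899926-38899966, plus strand): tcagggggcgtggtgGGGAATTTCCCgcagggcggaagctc
NFKBIZ (chr3:101827752-101827791, plus strand): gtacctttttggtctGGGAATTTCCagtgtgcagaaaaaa
TNFAIP3 (chr6:137867177-137867228, plus strand): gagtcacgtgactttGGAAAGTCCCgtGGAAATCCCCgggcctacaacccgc

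The match in NFKB1 began 49 bases before the start of the gene, that in NFKBIA 81 bases before it and that in the first NFKBIZ window 223 bases before it. In TNFAIP3, 2 separate matches began 67 and 55 bases before the start. NFKB2 had matches in 2 of its 3 windows, and 1 further stretch of NFKB2 and 1 in the other window of NFKBIZ are not printed. RELA held no match in its 2 windows, which says only that these letters are not there. A match to a consensus is a description of sequence and not a measured binding site. Genes that were higher, lower or not past the threshold in the comparison below held a match in 8.4%, 11% and 8.83% of cases.

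**Figure D1:**
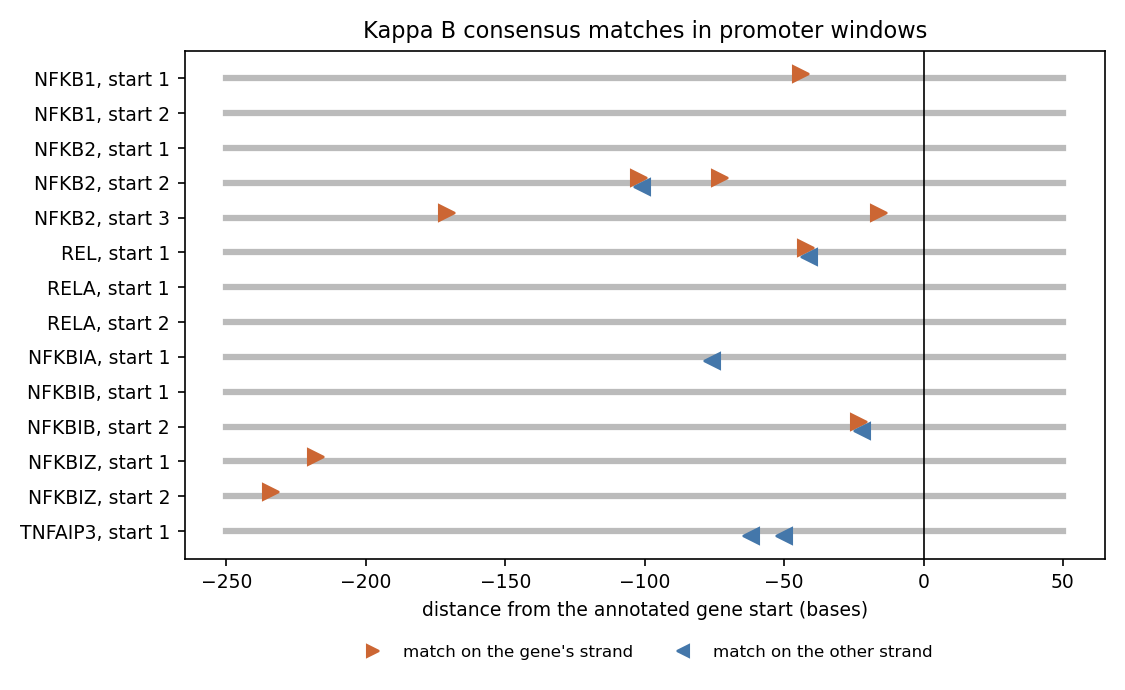
Position of kappa B consensus matches in the RefSeq windows of 8 members, in bases from the annotated gene start (x axis), with 1 row per window. Points mark matches on either strand, and 9 of the 14 windows carry at least 1.

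Libraries held 25180000 to 26440000 reads, recovered from the steps in the deposited FPKM values. PPARGC1A, the targeted gene, stood at 0.932, 1.04 and 0.947 FPKM in siNC and at 0.4, 0.354 and 0.413 FPKM in siPGC1a. It fell to 0.4 of the control level (log2 difference -0.51, SE 0.0659, limma adjusted p = 0.000234), and its groups did not overlap. With a pseudocount of 0.1, which shrinks low values less, the log2 difference of PPARGC1A was -1.14. The 6-base word ACACCT, picked out earlier from these data, was in the 3' UTR of 43% of the genes that fell, 19.7% of those that rose and 27.4% of those not past the threshold, whose median 3' UTR lengths were 1363, 843 and 999 bases, and its part in the differences was not tested. Melanocytic markers were present in all libraries, led by S100B (801.9 and 923.9 FPKM, mean of siNC and siPGC1a), with SOX10 between 216.6 and 257.1 FPKM, and summed to 1440 to 1480 FPKM in siNC and 1415 to 1424 FPKM in siPGC1a. Other melanocytic markers were far lower, with MITF between 5.35 and 7.34 FPKM and PMEL between 3.74 and 5.53 FPKM over all libraries. MLANA (0.876 to 1.95 FPKM), TYR (1.03 to 1.63 FPKM) and TYRP1 (0.722 to 1.15 FPKM) were lowest, so the sum rests on few genes. The sum hides opposite differences, since 1 of the 7 tested melanocytic markers was higher and 4 were lower. DCT, a pigment enzyme, was at 405.1, 393.8 and 382.8 FPKM in siNC and at 267.6, 247.0 and 245.4 FPKM in siPGC1a, and the part of these differences in the members' levels was not tested. Markers of immune cells were low but not all near 0, and their part in the members' levels was not tested. LYZ was at 1.56, 1.86 and 1.77 FPKM in siNC and at 0.732, 0.901 and 1.11 FPKM in siPGC1a. Of the 2 immune markers tested, 0 were higher and 1 was lower. PTPRC was listed at 0 in every library, and 13 immune markers summed to 5.75 to 6.48 FPKM in siNC and 5.08 to 5.92 FPKM in siPGC1a, with FCER1G most abundant (1.58 and 1.47 FPKM). Fibroblast markers, led by THY1 (28.5 and 26.4 FPKM), summed to 51.2 to 51.6 FPKM in siNC and 41.4 to 43.7 FPKM in siPGC1a. Of the 6 fibroblast markers tested, 5 were lower and 0 higher, and their part in the results was not tested. The 6 keratinocyte markers, led by KRT10 (20.6 and 22.4 FPKM) with KRT1 at 0, summed to 20.6 to 21.5 and 20.7 to 25.9 FPKM. The 5 endothelial markers, led by TEK, summed to 1.09 to 1.22 and 0.818 to 0.92 FPKM. In bulk RNA, fewer cells of a type and less RNA per cell cannot be told apart.

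After PPARGC1A siRNA, 8 of the 10 genes rose, 0 fell and 2, RELA and REL, did not pass the threshold (limma on log2(FPKM + 1), adjusted p of at most 0.05 over 12021 genes). All 5 inhibitors rose, TNFAIP3 only just (limma adjusted p = 0.0433), and so did 3 of the 5 subunits, NFKB1, NFKB2 and RELB. In every fit that left out a library, 7 members passed, without TNFAIP3. Across all genes tested, 48.1% passed in either direction, 25.6% were higher and 22.5% were lower. With a minimum mean of 5 FPKM, nearer to the level of most members, 2520 of 7274 genes were higher, a larger share. The members called higher numbered 8 there too. Every siPGC1a library stood above every siNC library for 8 of the 10 members, against 29.8% of all genes tested. Groups did not overlap in either direction for 57.2% of all genes. The median log2 difference of the members was 0.37, against 0.01 over all genes, of which the central 95% lay between -0.51 and 0.48. With 5783 genes called in this comparison, a difference of some size is common in these libraries, and the members' shares are read beside those of all genes.

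**Figure D2:**
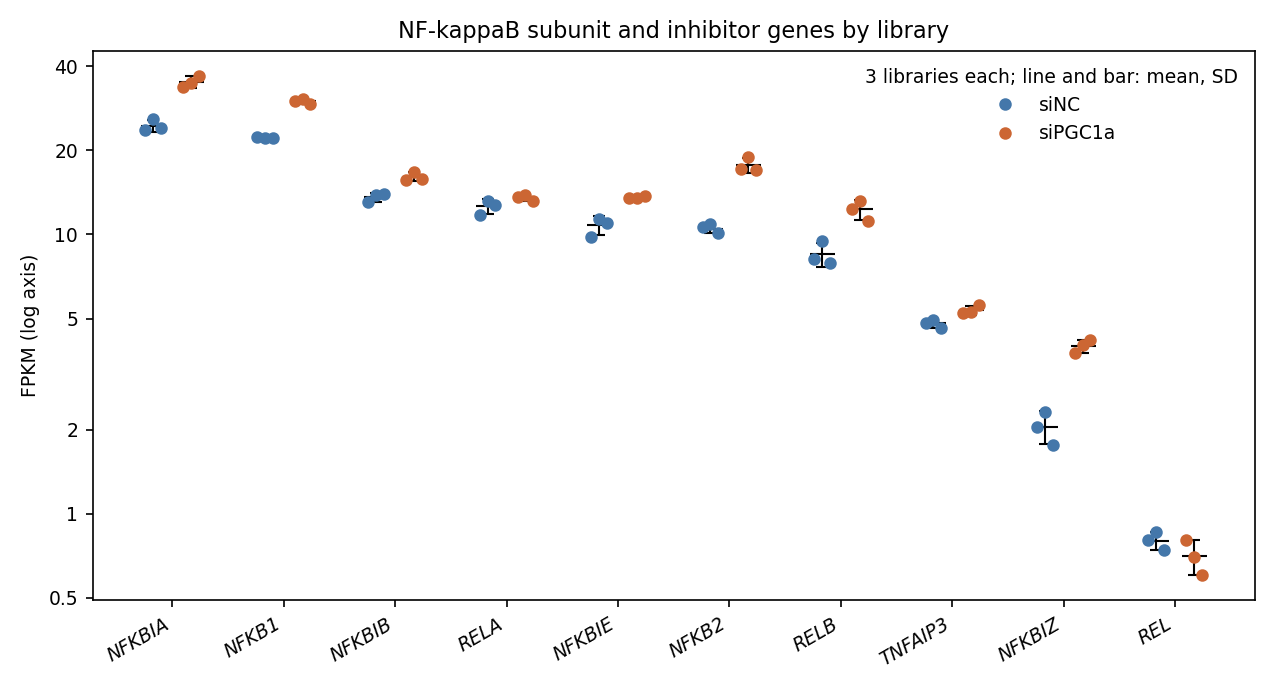
FPKM of each of the 10 genes in every library, siNC and siPGC1a side by side, with points for libraries and lines for group means. The 2 groups are apart for 8 genes and overlap for RELA and REL.

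Among the subunits, NFKB2, the p100 precursor of p52, showed the largest difference as a ratio, while NFKB1 gained slightly more in FPKM. Its level was 10.6, 10.9 and 10.1 FPKM in siNC and 17.1, 19.0 and 17.0 FPKM in siPGC1a. The lowest siPGC1a library lay 6.17 FPKM above the highest siNC library. NFKB2 rose 1.69-fold, from 10.5 ± 0.395 to 17.7 ± 1.13 FPKM (SD, n = 3), a log2 difference of 0.7 (SE 0.0526, 95% interval 0.58 to 0.82, limma adjusted p = 1.06e-05).

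NFKB1 encodes the p105 precursor of p50, and was the most abundant subunit. It measured 22.3, 22.2 and 22.1 FPKM in siNC against 30.1, 30.5 and 29.4 FPKM in siPGC1a. The control libraries lay within 0.419% (CV) of each other, less than the 1.67% that counting alone would give. The 1.35-fold rise amounted to 0.42 on the log2 scale (SE 0.037, 95% interval 0.34 to 0.5, limma adjusted p = 2.56e-05).

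RELB, the transactivating partner of p52, was found at 8.14, 9.46 and 7.87 FPKM in siNC and at 12.3, 13.2 and 11.2 FPKM in siPGC1a. Its CV in siPGC1a, 8.08%, was the highest there among the 8 genes called, yet the groups stayed apart. RELB rose 1.44-fold (log2 difference 0.48, SE 0.0731, 95% interval 0.32 to 0.65, limma adjusted p = 0.000552).

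RELA, the p65 transactivating subunit of the canonical dimer, did not pass. Its values were 11.7, 13.2 and 12.7 FPKM in siNC and 13.6, 13.8 and 13.2 FPKM in siPGC1a. The second siNC library was as high as the lowest siPGC1a library, so the groups overlapped. The log2 difference was 0.1 (SE 0.0502, 95% interval -0.01 to 0.21, limma adjusted p = 0.119, exact permutation p = 0.2). A fold near that of NFKB1 or NFKB2 lies outside this interval.

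REL, the c-Rel subunit best known from lymphocytes, was the lowest of the 10 genes. It was at 0.807, 0.86 and 0.739 FPKM in siNC and at 0.805, 0.7 and 0.606 FPKM in siPGC1a, from 208 to 290 reads a library. The means ran in the opposite direction to the other members, but the groups overlapped and the difference of -0.08 on the log2 scale did not pass (SE 0.0714, 95% interval -0.24 to 0.08, limma adjusted p = 0.368, exact permutation p = 0.2). The log2(FPKM + 1) scale makes changes at this level look smaller. With a pseudocount of 0.1 the difference was -0.17 (limma adjusted p = 0.371). The mean of REL was under the level of 1 FPKM asked of other genes, and 43.3% of its annotated exon bases are shared with a non-coding gene on the same strand that is listed at 0.

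Among the inhibitors, NFKBIZ, an atypical nuclear I-kappa-B protein that acts as a cofactor at some target genes, had the largest ratio of all 10 members. It went from 2.04, 2.32 and 1.77 FPKM in siNC to 3.75, 4.02 and 4.19 FPKM in siPGC1a. No siNC library came near the siPGC1a range. NFKBIZ rose 1.95-fold, from 2.05 ± 0.277 to 3.98 ± 0.224 FPKM (SD, n = 3). The log2(FPKM + 1) scale makes changes of low genes look smaller, and on it the rise was 0.71 (SE 0.0721, 95% interval 0.55 to 0.87, limma adjusted p = 5.39e-05), and with a pseudocount of 0.1 it was 0.94.

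NFKBIA encodes I-kappa-B-alpha, the inhibitor that is broken down and resynthesised in canonical signalling, and was the most abundant of the 10 transcripts per length. It stood at 23.7, 26.0 and 24.0 FPKM in siNC and at 33.6, 34.8 and 37.0 FPKM in siPGC1a. The groups were separated by more than the range within either of them. NFKBIA rose 1.43-fold (log2 difference 0.5, SE 0.0506, 95% interval 0.39 to 0.61, limma adjusted p = 5.49e-05).

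The 2 other classical cytoplasmic inhibitors rose less. NFKBIE, I-kappa-B-epsilon, was at 9.82, 11.4 and 11.0 FPKM in siNC and at 13.5, 13.5 and 13.7 FPKM in siPGC1a, a 1.26-fold rise (log2 difference 0.31, SE 0.0547, limma adjusted p = 0.0013). NFKBIB, I-kappa-B-beta, measured 13.1, 13.8 and 14.0 FPKM in siNC and 15.7, 16.7 and 15.8 FPKM in siPGC1a, a 1.18-fold rise (log2 difference 0.22, SE 0.0454, limma adjusted p = 0.00299). Both genes had all siPGC1a libraries above all siNC libraries. NFKBIB shares 1.7% of its exon bases with SIRT2 on the other strand, and whether the counting used strand is not given in the sources used here.

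TNFAIP3 encodes A20, a ubiquitin-editing enzyme that ends signalling from TNF and IL-1 receptors. Its level was 4.82, 4.95 and 4.62 FPKM in siNC and 5.22, 5.26 and 5.59 FPKM in siPGC1a. The groups did not overlap, but the gap was narrow, and the 1.12-fold rise (log2 difference 0.13, SE 0.0479, 95% interval 0.03 to 0.24) passed only just, at a limma adjusted p of 0.0433. That call was lost in 9 of 13 other settings, among them every one that left out a library (adjusted p between 0.0333 and 0.162 over all 13). Without siNC replicate 3, for instance, the adjusted p was 0.162. For TNFAIP3 and the other 7 genes called, the exact permutation test (two-sided, 6 values) gave 0.1, the smallest p that 3 against 3 allows.

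**Figure D3:**
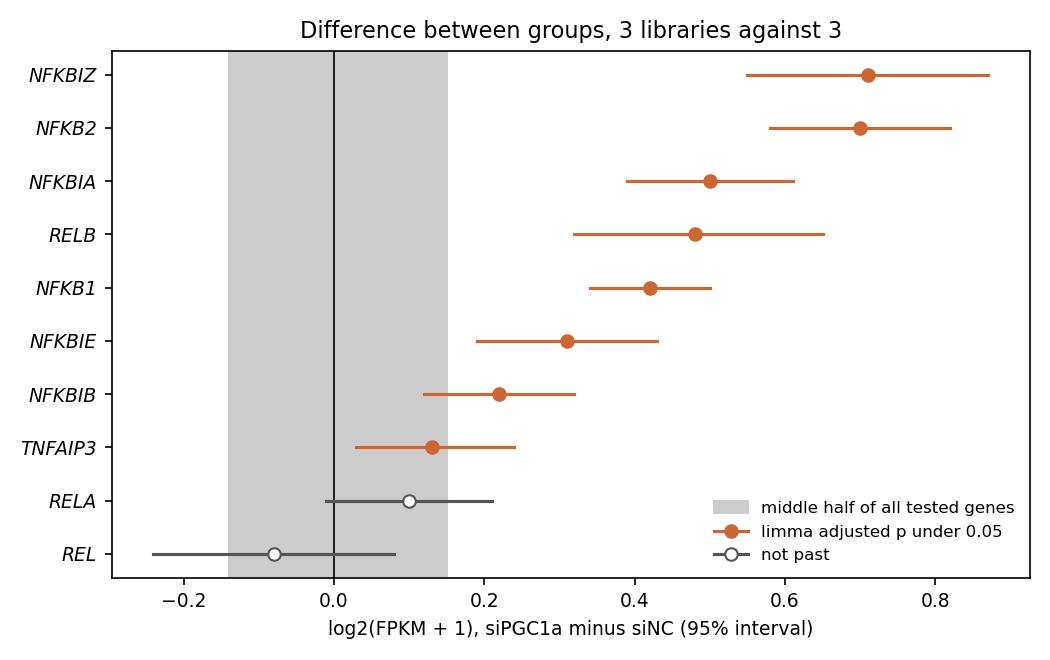
Log2 difference of each gene, siPGC1a less siNC in log2(FPKM + 1), with its 95% interval from limma. The grey band runs between the quartiles of all 12021 genes tested, -0.14 and 0.15. NFKBIZ, NFKB2, NFKBIA and RELB lie at or above 0.48, the upper end of the central 95% of all genes, which is not drawn. The intervals of RELA and REL cross 0.

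Differences in size among the members changed the order of their levels. In siNC the order from high to low was NFKBIA, NFKB1, NFKBIB, RELA, NFKBIE, NFKB2, RELB, TNFAIP3, NFKBIZ and REL, in FPKM, which is per length. Library values overlapped between NFKBIB and RELA and between NFKBIE and NFKB2, so those neighbours are not separated. In siPGC1a, NFKB2 stood in place 3 instead of 6, above NFKBIB and RELA with no overlap, while NFKBIE, RELA and RELB overlapped in sequence. NFKBIA and NFKB1 kept places 1 and 2 in both groups, and TNFAIP3, NFKBIZ and REL the last 3.

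The makeup of the subunit transcripts shifted with these differences. The 5 subunits summed to 54.5 ± 1.79 FPKM in siNC and 74.2 ± 2.91 FPKM in siPGC1a (SD, n = 3). NFKB2 made up 19.7, 19.2 and 18.8% of that sum in siNC and 23.2, 24.6 and 23.8% in siPGC1a. RELA went the other way, from 21.9, 23.4 and 23.8% to 18.4, 17.9 and 18.5%, although its own level did not pass the test. The shares of NFKB2, RELA and REL (1.47 ± 0.0781% and 0.948 ± 0.126%) did not overlap between groups, whereas those of NFKB1 (40.7 ± 1.31% and 40.4 ± 0.833%) and RELB (15.5 ± 1.04% and 16.5 ± 0.721%) did. These shares restate the levels above and were not tested.

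Ratios between members were also taken. The inhibitor NFKBIA stood at 2.02, 1.96 and 1.88 times the FPKM of RELA in siNC and at 2.47, 2.52 and 2.8 times in siPGC1a. RELB stood at 0.676 ± 0.0503 times RELA in siNC and 0.905 ± 0.053 times in siPGC1a, and NFKB2 at 0.473 ± 0.017 and 0.591 ± 0.0282 times NFKB1. These last 2 ratios were chosen after the values were seen, and the groups did not overlap for any of the 3. The ratio to RELA depends on the subunit chosen. NFKBIA rose 1.43-fold and RELA 1.08-fold, but NFKB1 rose 1.35-fold, RELB 1.44-fold and NFKB2 1.69-fold, while REL stood at 0.877 of control. The sum of NFKBIA, NFKBIB, NFKBIE and NFKBIZ was 51.0 ± 2.45 FPKM in siNC and 68.7 ± 2.11 FPKM in siPGC1a, so inhibitor and subunit transcripts were both more abundant. These values do not show inhibitor transcripts rising more than subunit transcripts. mRNA levels do not show protein, phosphorylation or nuclear location.

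**Figure D4:**
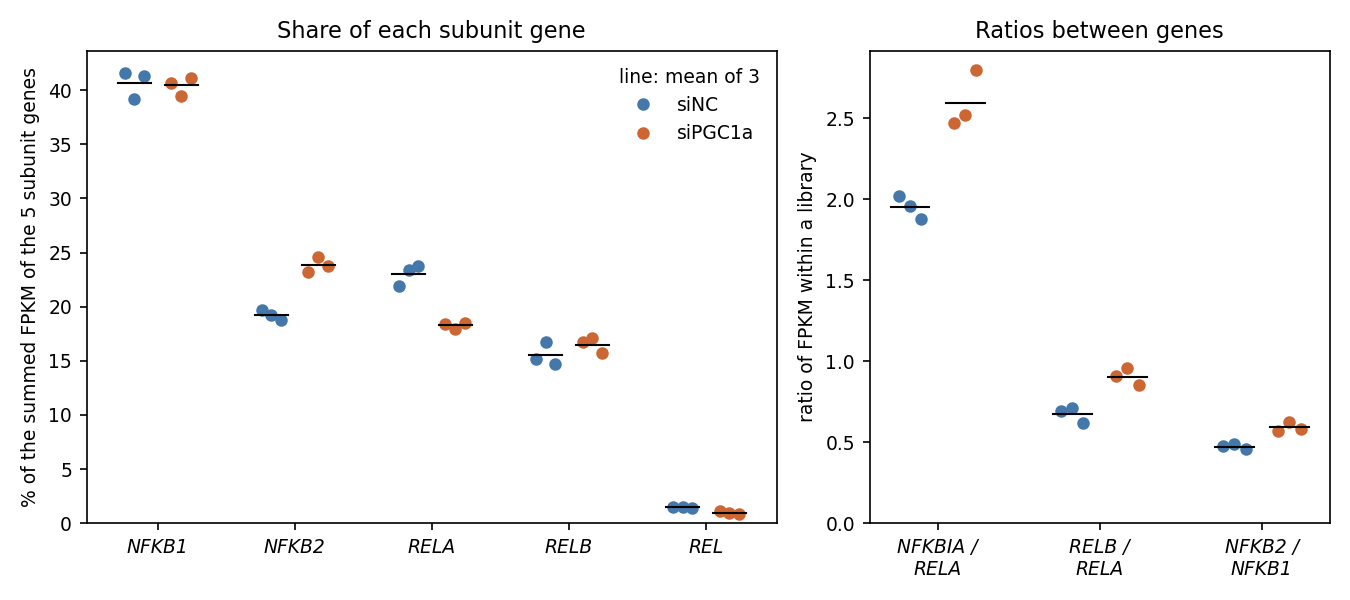
Share of each subunit in the summed FPKM of the 5 subunits, by library, and ratios between members. The NFKB2 share lies between 18.8 and 19.7% in siNC and between 23.2 and 24.6% in siPGC1a, and the RELA share is lower in every siPGC1a library.

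The rest of the pathway was described with 4 lists, none of which contains a member. Of 27 receptors and adaptors, 22 were tested: 8 rose, 4 fell and 10 did not pass, with a median log2 difference of 0.04. The 36.4% that rose compares with 25.6% of all genes, and with 2520 of 7274 genes where the minimum was 5 FPKM. BIRC3, a ubiquitin ligase at TNF receptors and itself a known NF-kappaB target, went from 9.06, 9.47 and 8.66 FPKM to 19.9, 17.4 and 19.4 FPKM (2.09-fold, limma adjusted p = 2.57e-06). TNFRSF12A, the receptor of TWEAK, rose from 21.5 to 37.6 FPKM, and IL1RAP, the co-receptor of the IL-1 receptor, from 7.94 to 12.9 FPKM. IRAK1 and IRAK4, kinases that act together below IL-1 and Toll-like receptors, moved in opposite directions. IRAK1 rose from 69.0 to 90.8 FPKM (limma adjusted p = 2.86e-05), and IRAK4 fell from 4.51, 4.51 and 4.34 FPKM to 2.54, 1.98 and 2.35 FPKM (0.514 of control, limma adjusted p = 2.91e-05). RIPK1, the scaffold kinase of the TNF receptor complex, fell from 26.0 to 21.4 FPKM.

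Kinases and ubiquitin enzymes between the receptors and I-kappa-B did not move one way. Of 18 listed, 15 were tested: 4 rose (26.7%, against 25.6% of all genes), 5 fell (33.3%, against 22.5%) and 6 did not pass, with a median of 0.02. TBK1, an IKK-related kinase, rose from 6.33 to 8.1 FPKM (limma adjusted p = 0.00426). CHUK, the IKK-alpha kinase, passed at 5.03 and 5.75 FPKM, a call lost in 5 of 13 settings, and TAB1, a TAK1 partner, passed at 17.7 and 19.3 FPKM, a call lost in 9 of 13. UBE2N, the ubiquitin-conjugating enzyme of K63-linked chains, rose from 7.67 to 9.29 FPKM, but 39.5% of its exon bases overlap NUDT4 on the other strand. BTRC, the ubiquitin ligase subunit that recognises phosphorylated I-kappa-B, fell from 4.41, 4.33 and 4.38 FPKM to 3.17, 2.65 and 2.73 FPKM (0.652 of control, limma adjusted p = 0.000169), and TAB3 fell from 7.27 to 5.63 FPKM. The other subunits of the IKK complex did not pass: IKBKB was at 4.04 and 4.1 FPKM, and IKBKG at 1.51 and 1.75 FPKM.

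Other brakes on the pathway did not move one way either. Of 20 listed, 18 were found by symbol and 17 were tested. Of these 17, 4 rose, 4 fell and 9 did not pass, with a median of 0.01, and the 23.5% that rose is close to the 25.6% of all genes. ZC3H12A, the Regnase-1 endonuclease that cleaves cytokine mRNAs, rose from 2.57 to 3.46 FPKM, and TOLLIP and ITCH rose from 7.41 to 8.82 and from 20.7 to 23.9 FPKM. TNIP1, a binding partner of A20, passed at 12.8 and 14.9 FPKM, a call lost in 6 of 13 settings. TAX1BP1 and ITCH both act with A20, yet TAX1BP1 fell, from 31.1 to 23.6 FPKM (0.759 of control, limma adjusted p = 0.000194). NFKBIL1 fell from 16.8 to 13.9 FPKM. BCL3, an atypical I-kappa-B protein that binds p50 and p52, fell from 10.8 to 8.91 FPKM (limma adjusted p = 0.0139), and CYLD, a deubiquitinase, did not pass at 2.28 and 2.53 FPKM. BCL3 and CYLD were picked for their roles, after their values were seen.

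Known target genes of NF-kappaB were the list with the largest median, 0.27. Of 40 listed, 28 were tested and 12 lay under the filter. Of the 28 tested, 17 rose (60.7%, against 25.6% of all genes), 4 fell (14.3%, against 22.5%) and 7 did not pass. Where the minimum was 5 FPKM, 2520 of 7274 genes were higher. The filter used the mean over both groups together. CXCL10, 1 of those that rose, was at 0.989 FPKM in siNC and 3.42 FPKM in siPGC1a. It entered the test only through its siPGC1a level, so its call is no evidence of a direction. The 17, the 28 and the median still include it. The chemokine CXCL8 rose from 2.45 to 14.4 FPKM, the cytokines IL1A and LIF from 4.87 to 21.8 and from 14.4 to 32.3 FPKM, and the cyclin CCND1 from 72.8 to 150.6 FPKM. The list was not uniform, since the adhesion receptor ICAM1 fell from 137.9 to 83.0 FPKM and CSF1, a macrophage growth factor, from 13.4 to 10.4 FPKM. Earlier results of these data on cytokine genes were known when the list was drawn up, so its count is not independent evidence of a direction. Among listed genes with a promoter window, kappa B matches stood in 45.2% of 31 targets, 26.3% of 19 other brakes, 13.3% of 15 kinases and ubiquitin enzymes, and 8.7% of 23 receptors and adaptors.

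**Figure D5:**
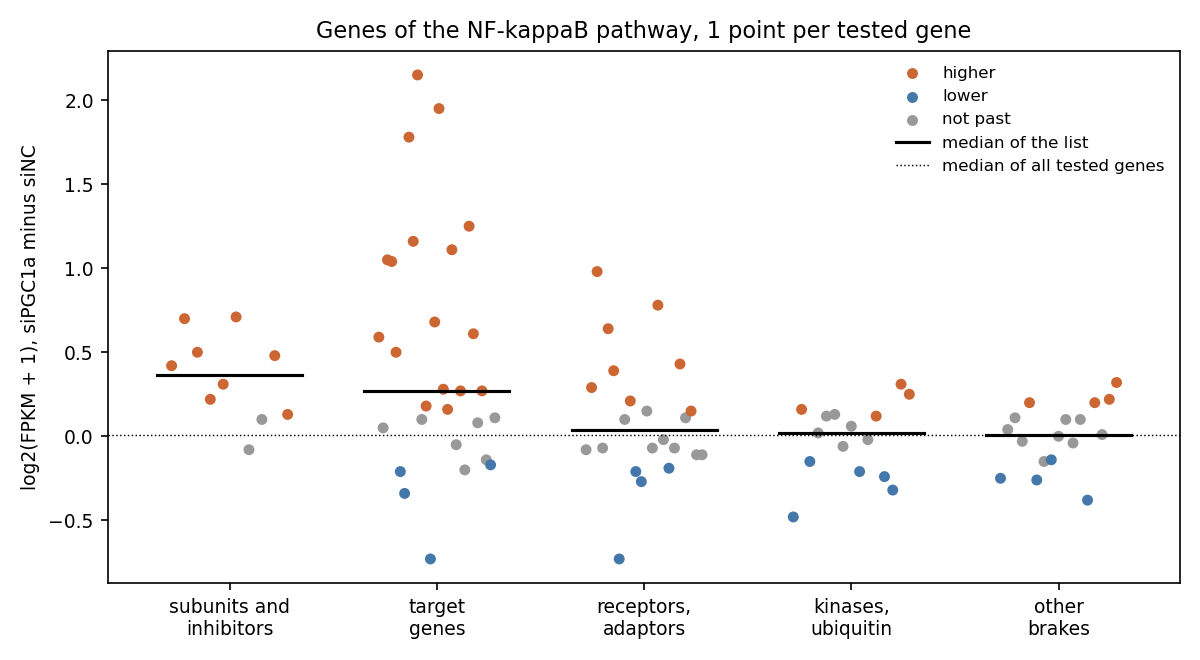
Log2 difference (siPGC1a minus siNC, log2(FPKM + 1) scale) of every tested gene in the members and the 4 pathway lists, with 1 point per gene and a line at each median. Medians are 0.37 for the members, 0.27 for targets, and between 0.01 and 0.04 for the other 3 lists.

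Library 2 of siNC was the highest control for 8 of the 10 members, all but NFKB1 and NFKBIB. In siPGC1a the highest library was replicate 2 for 5 members, replicate 3 for 4 and replicate 1 for REL. Without siNC replicate 2, 7 of the 10 members passed, with TNFAIP3 lost (limma adjusted p = 0.0575).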

How the data were processed

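The deposited values are FPKM per gene and library, computed by the authors. Their tools were STAR, Picard, featureCounts and DESeq2 with hg19, per the submitters' processing notes (no version or role given). Per the labels' protocols, libraries were stranded poly(A), sequenced as single reads of 50 bases. FPKM is scaled to each library's total, so a change in total mRNA per cell is not seen.

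Genes with a mean of at least 1 FPKM were tested on log2(FPKM + 1), the members and PPARGC1A regardless, with limma 3.58.1 in R 4.3.3 (intensity trend, two-sided, Benjamini-Hochberg adjustment over 12021 genes, threshold 0.05, no replicate block). The script was tested on simulated data. Single genes also had an exact permutation test (SciPy 1.17.1). The 3 libraries of a group differed by more than counting noise (chi-square per degree of freedom 1.95 to 5.86, and 27.15 to 36.32 between groups).

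Reads were recovered with GENCODE 29 exon lengths (55001 symbols matched). Among low values (up to 20 reads), 91.5 to 92.1% lay within 0.1 read of a whole number. Recovered reads served for depth, for the read counts and counting CVs of the members, and for the chi-square between libraries, but not for the limma or permutation tests. Annotation is of another build than the table, and coordinates are those of the RefSeq promoter windows.

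Of each pathway list, the text names the 4 genes with the smallest adjusted p among those higher and the 2 among those lower, with the most abundant marker of each cell type. Others are named as exceptions. The members and lists were chosen with earlier results of these data known. Another 13 settings were tried: pseudocount 0.1, no filter, a minimum of 5 FPKM, 2 other scalings, no trend, a replicate block, and each library left out. The 3' UTR word was counted in GENCODE 29 transcripts, and its places in the members are not reported here.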

Additional observations from a re-analysis of the deposited data

How the results depend on the processing

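All members kept their direction in the 13 other settings. NFKB1, NFKB2, RELB, NFKBIA, NFKBIB, NFKBIE and NFKBIZ passed in each, and RELA and REL in none (limma adjusted p 0.0673 to 0.377 and 0.224 to 0.703). TNFAIP3 lost its call without the filter (0.0822), with median log-ratio scaling (0.0533) and in every fit that left out a library (0.0575 to 0.162), so members called numbered 7 or 8. Genes called ranged from 4127 to 6079, and the median of all genes from -0.006 to 0.047. No result reversed. With a minimum of 5 FPKM, which tests fewer genes, 1607 genes were lower against 2708, targets gave 10 higher against 17, and receptors and adaptors 2 lower against 4. The targets CXCL8, CXCL1 and IL1A were at 2.45, 3.17 and 4.87 FPKM in siNC and met that minimum only through siPGC1a. Without the filter, kinases gave 2 higher against 4, other brakes 2 lower against 4 and targets 2 lower against 4; the cause was not tested. Leaving out 1 library, kinases gave 2 to 3 higher (2 without siNC replicate 3 or siPGC1a replicate 1) and targets 2 to 4 lower (2 without siNC replicate 3). REL had the fewest reads, 208 to 290 a library; its CV of 7.56% in siNC and 14.1% in siPGC1a exceeded the 6.06% and 6.5% from counting. For TNFAIP3 (590 to 735 reads) the CV of 3.39% and 3.75% did not exceed that from counting.

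The replicate numbers were not shown to pair the libraries. Correlations of deviations between same-numbered libraries were 0.077, 0.261 and -0.057, and siNC replicate 1 correlated best with siPGC1a replicate 3 (0.253). With a replicate block 6079 genes were called against 5783, and 7 members passed, with TNFAIP3 at an adjusted p of 0.0592 by limma.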

Other observations

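Of the pathway genes in the lists, 21 lay under the mean of 1 FPKM and were not part of the comparison. Several are cytokines that feed back on NF-kappaB. Of the 21, 4 had every siPGC1a library above every siNC library, 1 had every one below and 16 overlapped. Among all genes tested, a set of higher level, 29.8% were wholly higher and 57.2% were apart in either direction. Separation was thus no more frequent among these 21 genes than among the genes tested. TNF, the ligand of the canonical pathway, was at 0.248, 0.279 and 0.212 FPKM in siNC and at 0.583, 0.805 and 1.01 FPKM in siPGC1a, so every siPGC1a library exceeded every siNC library (ratio 3.24, exact permutation p = 0.1, the smallest possible). With no filter on low values, the limma adjusted p of TNF was 0.0149. IL1B went from 0.481 to 0.833 FPKM and the chemokine CXCL3 from 0.426 to 0.868 FPKM, with limma adjusted p of 0.0245 and 0.00501 in the same fit. LTB, a ligand of the non-canonical pathway, had groups that did not overlap, at 0.0417 and 0.144 FPKM, but did not pass (limma adjusted p = 0.0674). TLR3, the receptor of double-stranded RNA, was the 1 gene of the 21 with every siPGC1a library below every siNC library, at 0.702 and 0.303 FPKM (limma adjusted p = 0.00995). The other 16 overlapped between groups or were listed at 0, among them IL6 at 0.113 and 0.0943 FPKM and CCL2 at 0.254 and 0.27 FPKM, and CSF3 was listed at 0 in every library. These genes were picked after their values were seen.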
